A study of Mus musculus with 12 samples.

Results

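Macrophages sorted from the endometrium of mice with intrauterine adhesion were compared between mice that were given cytokine-primed mesenchymal stromal cells and mice that were given none. Of the 12 RNA sequencing libraries of the series, 6 enter this comparison directly: 3 from the group with primed cells (primed MSC) and 3 from the group with the adhesion model alone (IUA). The genes described are those with an FPKM (fragments scaled by the length of the transcript and by the mapped fragments of the library) of at least 1 in at least 3 of the 12 libraries, which kept 11604 of 22294 genes. The other 6 libraries, 3 from mice with a sham operation (Sham) and 3 from IUA mice given unprimed cells (control MSC), share the estimate of the spread and are given beside the main values. All mice other than Sham carried the adhesion model. Both kinds of cells were human, taken from umbilical cord, and were placed in a mouse host, and the priming used inflammatory cytokines that the labels do not name. The labels also do not state the strain, age or number of mice, the dose of cells or the time of sampling. The names of the IUA libraries carry the word Matrigel, a basement membrane gel, and whether the other groups received the gel is not given in the sources used here. A difference from IUA can therefore not be told apart from an effect of the gel if only IUA mice received it. Cells were released with trypsin and collagenase and sorted with magnetic beads against F4/80, the product of Adgre1.

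In intrauterine adhesion, scar tissue replaces the endometrium after injury. Macrophages of such a wound come from resident cells and from blood monocytes, and their gene expression depends on the signals they meet. Interleukin 4 and interleukin 13 act through the interleukin 4 receptor and STAT6 and induce a programme called alternative activation, with the secreted proteins encoded by Retnla and Chil3 as its usual markers. Bacterial products and interferon gamma act through Toll-like receptors, NF-kB and interferon receptors. Scar tissue also holds macrophages that handle lipid and make osteopontin, the product of Spp1.

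The defining macrophage genes were abundant in all 6 libraries. Lyz2, which encodes lysozyme, stood at 18544, 18429 and 17701 FPKM in IUA replicates 1 to 3 and at 17688, 19291 and 19107 FPKM in primed MSC replicates 1 to 3. Genes of uterine epithelium were present as well. Krt18, a keratin, stood at 652, 2413 and 1638 FPKM in IUA and at 859.8, 574 and 869.6 FPKM in primed MSC, so the sorted fraction was not free of other cells. Library totals were 505459.9 to 563751 FPKM. Totals of a scaled unit do not give the sequencing depth, which is unknown. The libraries differed in how level depended on the GC content of transcripts. To measure this, the mean log2(FPKM + 1) of each gene over the 12 libraries was subtracted from its value in each library. Spearman's correlation of this deviation with GC content, taken across genes, was -0.151, -0.182 and -0.491 in the IUA libraries. In the primed MSC libraries it was 0.189, 0.143 and 0.222. The sign is thus relative to the mean of the 12 libraries. IUA replicate 3 stood apart from its group in this measure, and IUA replicate 1 stood apart in genes of stroma, as given below. The libraries of a group are separate samples by their labels, but nothing says that they come from separate mice, and p-values then measure only the spread between libraries, which may be technical.

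Between primed MSC and IUA, 2219 of the 11604 tested genes changed (19.1%), and 1410 of these were higher in primed MSC (12.2%) and 809 lower (6.97%). The words rise, fall and change are used for an adjusted p under 0.05 by limma on log2(FPKM + 1), with Benjamini-Hochberg adjustment over the 11604 genes. The median log2 change over all tested genes was -0.03. Most changes were moderate: the median log2 change was 0.75 among the genes that rose and -0.66 among those that fell, and 350 and 144 genes reached a log2 change of 1 in either direction. The 3 primed MSC libraries all lay above the 3 IUA libraries for 20.1% of the tested genes and all below them for 17.4%.

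The direction followed the GC content of the transcripts. Genes that rose had a median GC content of 54.6%, genes that fell 46.6% and all tested genes 49.8%. With the genes split into 5 equal groups by GC content, 2.46% rose and 12.2% fell in the lowest group, and in the highest 26.3% rose and 2.59% fell. After a correction that removed the dependence on GC content from each library, 1201 genes rose and 864 fell, and 70.8% of the risen and 63.2% of the fallen genes were among them. In the highest group 13.2% then rose and 13.6% fell. Whether the difference in GC content arose in the tissue or in library preparation was not tested. The counts also moved with single libraries. They were 933 higher and 401 lower without IUA replicate 3, and 862 and 294, 902 and 352, and 864 and 508 without primed MSC replicate 1, 2 or 3. Of 239 genes that passed and are named by rule or belong to the lists used here, 118 also passed with the GC correction and without each of the 12 libraries in turn. A gene described below as risen or fallen is one of these 118 unless the text gives the adjusted p at which its call was lost. Losses under other settings are not given gene by gene. Of 154 named genes that passed, 24 lost their call with only the 2 groups fitted. With the mean of a list of stroma genes as covariate 23 lost it, and with the GC correction leaving out IUA replicate 3 it was 41.

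**Figure D1:**
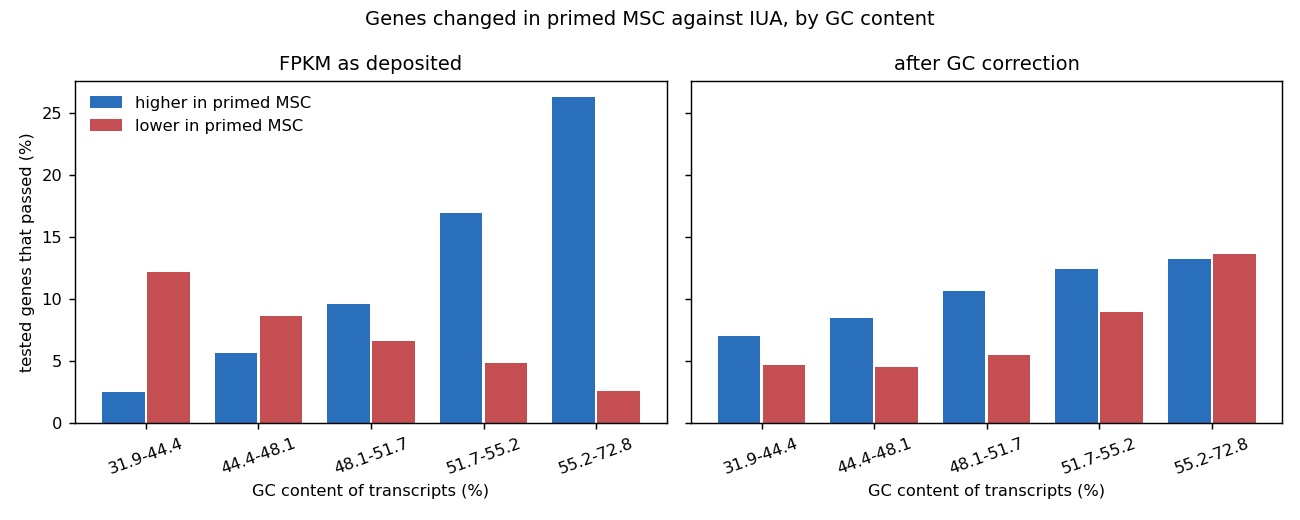
Percent of tested genes that were higher (blue) or lower (red) in primed MSC than in IUA, in 5 groups of genes of equal size ordered by the GC content of their transcripts (percent), for FPKM as deposited (left) and after GC correction (right). As deposited, the percent higher climbs from 2.46 to 26.3 and the percent lower drops from 12.2 to 2.59.

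Carriers of small acids were among the genes that rose most. Slc13a3 encodes a sodium-coupled carrier of dicarboxylates such as succinate (mm10 chromosome 2, 165405028 to 165473230). It stood at 5.59, 4.62 and 4.41 FPKM in IUA and at 121, 157 and 92.9 FPKM in primed MSC (log2 change 4.38 ± 0.30, adjusted p = 5.91e-05). The groups lay far apart, and control MSC at 56.3, 101 and 66.01 FPKM lay between them, with an overlap with primed MSC. Slc16a3, a carrier that exports lactate, was measured at 39.8, 42.3 and 5.32 FPKM in IUA and 179, 176 and 156 FPKM in primed MSC (log2 change 2.94 ± 0.54, adjusted p = 0.00476). IUA replicate 3 was far below its group here, and without it the adjusted p was 0.000228 and the log2 change 2.03. Slc16a6, a relative of the lactate carriers, rose from 20.4 ± 1.78 to 64.7 ± 15.99 FPKM (mean ± SD, n = 3), with IUA values close together at 22.1, 20.5 and 18.6 FPKM. Slc25a10, which moves dicarboxylates across the inner mitochondrial membrane, rose less (log2 change 1.18 ± 0.18). Of the list on itaconate, dicarboxylates and lactate, 6 of 17 tested members rose and 1 fell, against 12.2% and 6.97% of all tested genes. Of the members that rose, 4 are the carriers named here. Acod1, which makes itaconate, was not among them: it stood at 187, 193 and 118 FPKM in IUA and 391, 156 and 185 FPKM in primed MSC (adjusted p = 0.314), with primed MSC replicate 1 high.

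The other genes with the largest rises encode enzymes, secreted proteins and proteins of the cell surface. Xylt2, which starts glycosaminoglycan chains on proteoglycans, was at 3.48, 3.08 and 0.94 FPKM in IUA and 18.9, 18.01 and 17.9 FPKM in primed MSC (log2 change 2.55 ± 0.25, adjusted p = 0.00027). The 3 primed values lay within about 1 FPKM of each other. Impdh1, an enzyme of guanine nucleotide synthesis, and Lfng, which adds sugars to Notch receptors, rose with log2 changes of 2.18 ± 0.37 and 2.09 ± 0.29. For both, IUA replicate 3 was the lowest library, at 1.16 FPKM for Impdh1 and 0.48 FPKM for Lfng. Tgfb3, a ligand of the TGF-beta family, lay at 5.48, 5.91 and 3.31 FPKM in IUA and 25.2, 28.6 and 27.2 FPKM in primed MSC. Pxn encodes paxillin, an adaptor of focal adhesions, and lay at 9.7, 9.68 and 4.53 FPKM in IUA and 39.9, 39.9 and 38.2 FPKM in primed MSC (log2 change 2.23 ± 0.20, adjusted p = 0.000251). Mmp9, a secreted gelatinase, was at 12.3, 11.5 and 6.79 FPKM in IUA and 70.98, 44.6 and 48.2 FPKM in primed MSC (log2 change 2.32 ± 0.26, adjusted p = 0.00047). Its control MSC values, 39.8, 68.3 and 53.2 FPKM, overlapped those of primed MSC. Dmbt1, a scavenger receptor protein that uterine epithelium secretes, was at 2.17, 1.73 and 1.55 FPKM in IUA and at 56.2, 5.33 and 28.8 FPKM in primed MSC. Primed MSC replicates 1 and 3 were high and replicate 2 was nearer to IUA, and the lack of overlap was a condition for choosing the gene.

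Several genes with a group mean of at least 100 FPKM are named next by the size of their change. Rac2, a small GTPase of blood cells, stood at 75.4, 72.7 and 73.1 FPKM in IUA and 218, 293 and 209 FPKM in primed MSC (log2 change 1.67 ± 0.18, adjusted p = 0.000339). Coro1a, an actin-binding protein of leukocytes, rose with a log2 change of 1.48 ± 0.22, Efhd2, a calcium-binding actin regulator, with 1.46 ± 0.20, and Arhgdia, an inhibitor of small GTPases, with 1.51 ± 0.29. Tgm2, a transglutaminase that cross-links proteins, went from 166 ± 69.4 to 482 ± 37.4 FPKM, and Emilin2, a protein of elastic matrix, from 45.1 ± 20.4 to 123 ± 9.31 FPKM. Junb, a subunit of AP-1, had a log2 change of 1.90 ± 0.49 (adjusted p = 0.0204), and its call was lost without primed MSC replicate 1 or 3 (adjusted p = 0.0596 to 0.0609). On the other side, Emp1, a small membrane protein, fell from 239.9, 224 and 364 FPKM to 91.7, 96.3 and 106 FPKM (log2 change -1.45 ± 0.17, adjusted p = 0.000487). Crip1 and Ctla2a, a LIM-domain protein and an inhibitor of cysteine proteases, fell with log2 changes of -1.31 ± 0.25 and -1.51 ± 0.32. Lack of overlap between the groups was a condition for choosing genes by the size of their change, here and in the other paragraphs, so it adds no support.

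**Figure D2:**
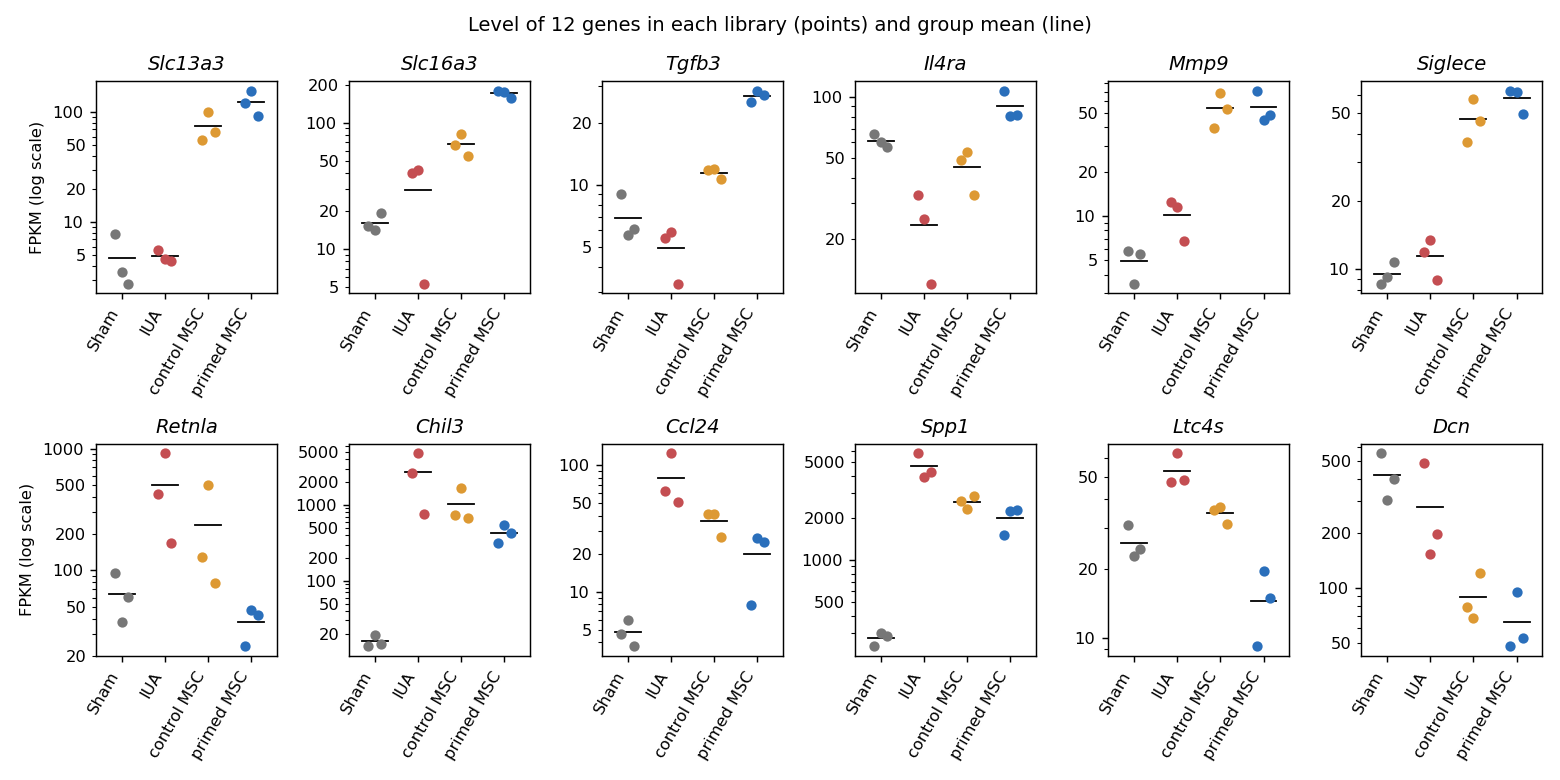
FPKM (log scale) of 12 genes in the 3 libraries of each of 4 groups (points), with the group mean as a line. For Slc13a3, Tgfb3 and Siglece in the upper row all primed MSC libraries lie above all IUA libraries, and for Retnla, Chil3 and Spp1 in the lower row all lie below them; IUA replicate 3 is the lowest IUA library for Slc16a3, at 5.32 FPKM.

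Alternative activation genes were among those that fell most. Retnla, a secreted resistin-like protein, stood at 423, 913 and 167 FPKM in IUA replicates 1 to 3 and at 23.9, 47.1 and 43.05 FPKM in primed MSC replicates 1 to 3 (log2 change -3.42 ± 0.67, adjusted p = 0.00614). Its Sham values, 95.2, 37.6 and 60.5 FPKM, overlapped those of primed MSC. Chil3, a chitinase-like protein also called Ym1, went from 2639.7, 4775 and 759.9 FPKM in IUA to 317, 544 and 422 FPKM in primed MSC (log2 change -2.34 ± 0.54, adjusted p = 0.0119). Both genes varied more within IUA than within primed MSC. For both, every IUA library lay above every primed MSC library, which was a condition for choosing genes by the size of their change. The Sham libraries held only 13.6, 19.4 and 14.7 FPKM of Chil3, and all primed MSC libraries were above them. Differences from Sham were not tested here, and Sham values are given for their level alone. Chil4, the neighbouring paralog, was low and moved the same way, with 3.02, 1.5 and 1.51 FPKM in IUA and 0.16, 0.29 and 0.23 FPKM in primed MSC (log2 change -1.26 ± 0.20, adjusted p = 0.00228). The longest open reading frames of Chil3 and Chil4 are 95.3% identical, so reads could have been split between the pair and the value of Chil4 is uncertain.

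The promoters of these 3 genes and of Il4ra, the receptor chain that rose as they fell, are shown because the 4 genes belong to one signalling path. Each run is 300 bases from RefSeq on GRCm38.p6, from 250 bases before the annotated start to 50 after it, and the capitals mark a match to a motif in letters. In the Retnla, Chil3 and Chil4 windows 2 motifs were searched, on both strands. They are TTC and GAA with 4 free bases between them (STAT6-type) and TTC and GAA with 3 free bases (STAT-type). In the Il4ra window only GGG, 2 free bases and TTTCC (NF-kB-type) was searched, also on both strands. A stretch in small letters can therefore match a motif that was not searched in its window, and the windows cannot be compared by the kind of motif marked. The windows lie at chr16:48842359-48842658 (plus strand), chr3:106167515-106167814 (minus strand), chr3:106219430-106219729 (minus strand) and chr7:125552021-125552320 (plus strand).
Retnla: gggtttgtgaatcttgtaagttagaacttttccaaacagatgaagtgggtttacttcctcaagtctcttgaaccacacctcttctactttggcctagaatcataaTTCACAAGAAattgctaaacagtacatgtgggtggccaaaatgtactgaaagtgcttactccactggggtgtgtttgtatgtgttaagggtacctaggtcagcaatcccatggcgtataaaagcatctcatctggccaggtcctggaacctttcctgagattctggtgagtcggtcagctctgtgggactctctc
Chil3: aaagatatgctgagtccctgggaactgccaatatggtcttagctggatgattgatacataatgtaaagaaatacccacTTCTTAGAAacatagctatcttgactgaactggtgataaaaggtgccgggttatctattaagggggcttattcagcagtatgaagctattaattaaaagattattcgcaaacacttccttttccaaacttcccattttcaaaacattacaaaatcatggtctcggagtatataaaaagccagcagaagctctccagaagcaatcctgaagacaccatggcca
Chil4: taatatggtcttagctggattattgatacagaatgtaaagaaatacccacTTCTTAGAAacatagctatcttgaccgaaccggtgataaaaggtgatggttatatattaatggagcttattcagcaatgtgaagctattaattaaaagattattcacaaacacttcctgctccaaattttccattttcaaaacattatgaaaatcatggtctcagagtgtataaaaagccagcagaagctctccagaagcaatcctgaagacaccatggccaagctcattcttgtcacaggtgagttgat
Il4ra: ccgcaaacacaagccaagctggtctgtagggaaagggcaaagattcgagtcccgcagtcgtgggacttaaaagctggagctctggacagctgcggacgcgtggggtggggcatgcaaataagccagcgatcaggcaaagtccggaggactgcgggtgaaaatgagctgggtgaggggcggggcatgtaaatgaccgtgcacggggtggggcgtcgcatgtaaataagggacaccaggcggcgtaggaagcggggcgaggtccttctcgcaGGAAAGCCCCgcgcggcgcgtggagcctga
Retnla has a STAT6-type match that starts at -145 from the gene's start. The Chil3 and Chil4 windows, which are 92.6% identical where they align, share a STAT-type match at -172 and -200. In Il4ra the capitals are an NF-kB-type match on the opposite strand, at 20 past the start. The Retnla, Chil3 and Chil4 windows hold 2, 3 and 2 CpG, and the Il4ra window holds 25. A match to the letters of the STAT motifs is common, and the NF-kB-type motif occurs in 1.89% of all promoters. The STAT6-type motif occurs in 8.01% of all promoters in the table and the STAT-type motif in 9.55%. The STAT6-type motif occurs in 6.57% of the promoters of genes that rose and in 8.36% of those that fell, against 6.6% of tested genes, and the STAT-type motif in 8.41%, 9% and 8.33%. The median number of CpG was 23 in genes that rose, 17 in genes that fell and 20 in tested genes.

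Of the list of alternative activation markers, 10 of 22 tested members fell and 2 rose, against 6.97% and 12.2% of all tested genes. The median log2 change of the list was -0.61. The number that fell was 10 with the GC correction and between 8 and 11 when 1 library was left out. Beside the 3 genes above, the members that fell included 3 lectins that bind sugars on glycoproteins. Mgl2 went from 47.9, 61.2 and 34.99 FPKM in IUA to 7.98, 18.8 and 13.8 FPKM in primed MSC (log2 change -1.79 ± 0.33, adjusted p = 0.00488). Cd209a, a relative of DC-SIGN, was at 14.7, 5.77 and 15.9 FPKM and 1.74, 3.68 and 2.88 FPKM (log2 change -1.73 ± 0.33, adjusted p = 0.0052), and Clec10a fell with a log2 change of -0.97 ± 0.19. Ccl24, an eotaxin that attracts eosinophils, was at 62.99, 124 and 51.2 FPKM in IUA and at 7.92, 26.4 and 24.8 FPKM in primed MSC (log2 change -2.02 ± 0.41, adjusted p = 0.007). The primed values were still above the Sham values of 4.66, 6.01 and 3.7 FPKM. Cd163, the receptor for haemoglobin-haptoglobin complexes, fell from 3.86, 4.02 and 6.5 to 1.47, 1.73 and 0.99 FPKM (log2 change -1.26 ± 0.21, adjusted p = 0.0026). The other 2 members that fell, the transcription factors Klf4 and Myc, lost their calls without IUA replicate 3 or primed MSC replicate 1 or 2 (adjusted p = 0.0606 to 0.0757) for Klf4 and without Sham replicate 1, 2 or 3, IUA replicate 1 or 3, control MSC replicate 2 or 3 or primed MSC replicate 1, 2 or 3 (adjusted p = 0.0505 to 0.165) for Myc.

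Not every marker of this programme was lower. Arg1, which splits arginine, was at 986, 1617 and 817 FPKM in IUA and 823, 1125 and 1020.4 FPKM in primed MSC, with overlapping groups (log2 change -0.15 ± 0.34, adjusted p = 0.778). Mrc1, the mannose receptor, did not pass either (log2 change -0.41 ± 0.14, adjusted p = 0.0646). The 2 members that rose were Tgm2 and Il4ra, the signalling chain shared by the receptors for interleukin 4 and interleukin 13. Il4ra stood at 33.01, 25.1 and 12.02 FPKM in IUA and 108, 81.1 and 81.2 FPKM in primed MSC (log2 change 2.00 ± 0.29, adjusted p = 0.00143). The primed libraries also lay above the Sham libraries, which held 65.9, 60.1 and 56.98 FPKM.

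Ltc4s, Rnase2a and Ear2 fell with the alternative activation markers. Ltc4s makes leukotriene C4, and was at 47.2, 63.1 and 48.6 FPKM in IUA and 9.25, 19.6 and 14.9 FPKM in primed MSC (log2 change -1.84 ± 0.22, adjusted p = 0.000577). Rnase2a and Ear2 encode ribonucleases of the eosinophil-associated family that macrophages can also express. Rnase2a was at 16.2, 28.5 and 9.01 FPKM in IUA and 0.72, 2.64 and 1.84 FPKM in primed MSC (log2 change -2.72 ± 0.52, adjusted p = 0.00547), and Ear2 at 10.98, 13.7 and 7.43 and 0.90, 2.6 and 2.12 FPKM. Their longest open reading frames are 80.3% identical, and whether part of their reads was shared was not tested. Of the eosinophil list, 4 of 6 tested members fell, Rnase2a, Ear2, Ccr3 and Prg2, of 12 listed, against 6.97% of all tested genes. The defining eosinophil markers Epx, Prg3 and Ear6 were listed at 0 in all 12 libraries, and Siglecf did not exceed 0.97 FPKM. Ccr3, the eotaxin receptor, lost its call with GC correction (adjusted p = 0.0639), and Prg2 without IUA replicate 1 or 3 or primed MSC replicate 1 or 2 (adjusted p = 0.0504 to 0.0804).

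Genes that identify macrophages rose in part. Of the identity list, 11 of 25 tested members rose and none fell, against 12.2% and 6.97% of all tested genes. The median log2 change of the list was 0.38, and 9 members rose with the GC correction, where 1 fell. Adgre1, whose product F4/80 was the handle of the sort, stood at 476, 401 and 424 FPKM in IUA and at 1161, 1382 and 983 FPKM in primed MSC (log2 change 1.43 ± 0.14, adjusted p = 0.00027). Sham held 256, 207 and 205 and control MSC 837, 1039 and 944 FPKM, so the level stood lowest in Sham and highest in both treated groups, which overlapped. Itgam, the integrin chain CD11b, was at 83.8, 117 and 56.2 FPKM and 188, 192 and 160.3 FPKM (log2 change 1.12 ± 0.22, adjusted p = 0.00655). Fcgr1, the high-affinity receptor for immunoglobulin G, rose from 61.4 ± 10.4 to 119 ± 9.61 FPKM. Csf3r, the receptor of a neutrophil growth factor, Sirpa, an inhibitory receptor for CD47, and Cx3cr1, the fractalkine receptor, rose with log2 changes of 1.17 ± 0.26, 1.05 ± 0.18 and 0.98 ± 0.17. Cebpb, a transcription factor of myeloid cells, was at 575, 577 and 577 FPKM in primed MSC and at 316, 268 and 90.8 FPKM in IUA (log2 change 1.54 ± 0.36, adjusted p = 0.0137). Csf1r, the receptor of the macrophage growth factor, had a log2 change of 0.92 ± 0.23 (adjusted p = 0.0163), and its call was lost without primed MSC replicate 1 (adjusted p = 0.0519). Cd68, Ptprc, Lyz2 and Mertk did not pass. Cd68, a lysosomal protein of macrophages, was at 1477, 1033 and 1512 FPKM in IUA and 901, 1031 and 974 FPKM in primed MSC (log2 change -0.45 ± 0.16, adjusted p = 0.062), and it passed as lower with the GC correction (adjusted p = 0.0382). In sorted bulk samples, fewer cells of a type and less RNA per cell cannot be told apart.

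The list of tissue-resident macrophage genes moved the other way. Of its tested members 9 of 20 fell and 1 rose, against 6.97% and 12.2% of all tested genes. The median log2 change of the list was -0.63, and between 6 and 11 members fell when 1 library was left out. Fcna, a ficolin that binds microbial sugars, was at 93.7, 111 and 111 FPKM in IUA and 25.98, 48.1 and 36.7 FPKM in primed MSC (log2 change -1.52 ± 0.25, adjusted p = 0.0026). Folr2, a folate receptor of resident macrophages, fell from 200.1, 156 and 237 to 98.3, 106 and 84.5 FPKM (log2 change -1.01 ± 0.18, adjusted p = 0.00435). Igf1, a growth factor, fell from 114 ± 23.1 to 56.5 ± 13.1 FPKM, and Timd4, a receptor for phosphatidylserine, from 4.95 ± 0.953 to 2.09 ± 0.717 FPKM. For Folr2, Fcna, Igf1 and Timd4 no primed library reached an IUA library. Ccl8, Vsig4 and Cbr2 also passed, but their calls were lost with GC correction (adjusted p = 0.0504) and without IUA replicate 1 or 3 or primed MSC replicate 1, 2 or 3 (adjusted p = 0.0651 to 0.15) for Ccl8, with GC correction (adjusted p = 0.0514) and without IUA replicate 1 or 3 or primed MSC replicate 1 or 3 (adjusted p = 0.0585 to 0.107) for Vsig4 and without IUA replicate 3 or primed MSC replicate 1, 2 or 3 (adjusted p = 0.0575 to 0.134) for Cbr2. The mean log2(FPKM + 1) of the list was 6.65, 6.42 and 6.69 in IUA and 5.92, 6.25 and 6.05 in primed MSC.

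Genes of lipid-associated scar macrophages were lower as well. Of the 18 tested members 6 fell and none rose (median log2 change -0.50), against 6.97% and 12.2% of all tested genes. The number that fell was 3 without IUA replicate 3 or primed MSC replicate 1 and 11 without IUA replicate 2. Spp1, which encodes osteopontin, stood at 5762, 3939 and 4253 FPKM in IUA and 1501, 2229.6 and 2271 FPKM in primed MSC (log2 change -1.22 ± 0.18, adjusted p = 0.00167). With Sham at 243, 301 and 286 FPKM, the primed libraries were nearer to IUA than to Sham on the log scale. Fabp4, a fatty acid carrier, was at 47.2, 22.9 and 30.7 FPKM and 7.89, 12.1 and 11.8 FPKM (log2 change -1.54 ± 0.30, adjusted p = 0.00571). Mmp12, an elastase of macrophages, had a log2 change of -1.39 ± 0.36, and its call was lost without IUA replicate 1 or 3 or primed MSC replicate 1 (adjusted p = 0.0532 to 0.0816). Trem2 and Gpnmb, markers often used for these cells, did not pass, with adjusted p of 0.0722 and 0.102. On the list of recruited monocyte genes 6 of 22 tested members fell and 1 rose. Those that also fell with the GC correction and with each library left out in turn were Chil3, Ifitm6, Lsp1 and S100a6, the last a small calcium-binding protein that went from 96.9, 88.2 and 94.9 FPKM to 47.7, 52.9 and 54.9 FPKM (log2 change -0.84 ± 0.17, adjusted p = 0.00685). The member that rose was Thbs1, the matrix protein thrombospondin 1, from 813, 799.7 and 648 to 1646, 1677 and 1366 FPKM (log2 change 1.05 ± 0.12, adjusted p = 0.000495). Ly6c2 and Ccr2, the defining surface genes of inflammatory monocytes, did not pass. Ly6c2 overlapped between groups, at 22.3, 26.3 and 18.9 FPKM in IUA and 63.2, 9.17 and 24.01 FPKM in primed MSC (adjusted p = 0.907).

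**Figure D3:**
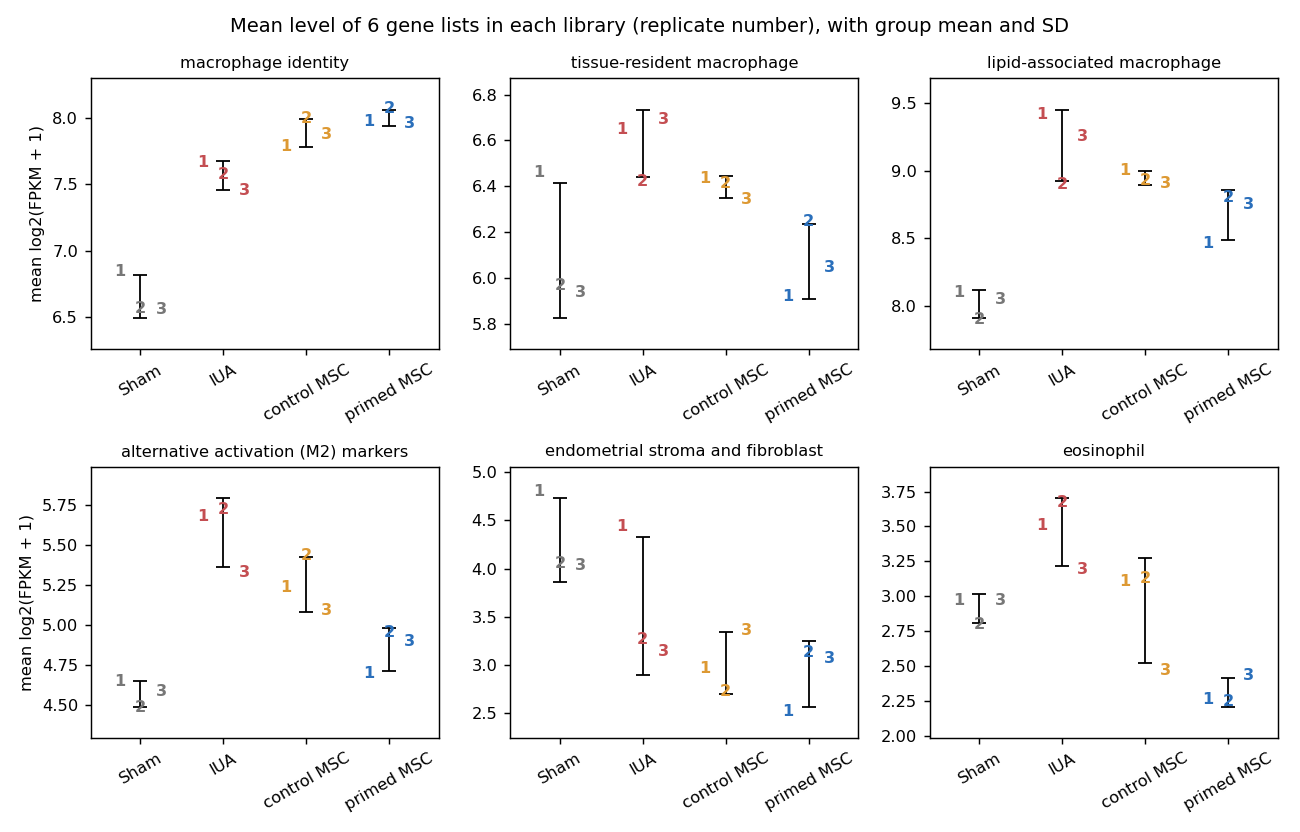
Mean log2(FPKM + 1) of the tested members of 6 gene lists in each library, shown by its replicate number, with the group mean and SD as error bars. The macrophage identity list is higher in primed MSC than in IUA, at 7.97, 8.07 and 7.96 against 7.67, 7.58 and 7.46, and the tissue-resident, lipid-associated, alternative activation and eosinophil lists are lower; IUA replicate 1 stands apart in the stroma list at 4.44.

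Receptors and signalling proteins for cytokines rose while several cytokine genes did not. Of the list on interleukin 6, 10, 12 and 4 and TNF signalling, 13 of 29 tested members rose and 2 fell. Of all tested genes 12.2% rose and 6.97% fell. The median log2 change of the list was 0.40. The number that rose was 11 with the GC correction and 8 without primed MSC replicate 1. Among the kinases, Jak3, which serves receptors with the common gamma chain, was at 1.92, 2.45 and 1.01 FPKM in IUA and 9.12, 7.08 and 7.43 FPKM in primed MSC (log2 change 1.70 ± 0.19, adjusted p = 0.00047). Among the transcription factors, Stat3 rose from 131 ± 22.9 to 206 ± 17.5 FPKM. Stat6, the factor downstream of the interleukin 4 receptor, stood at 25.7, 26.8 and 7.14 FPKM in IUA and 44.5, 44.99 and 45.1 FPKM in primed MSC (log2 change 1.33 ± 0.35, adjusted p = 0.0209). IUA replicate 3 was low for it, and the call was lost without primed MSC replicate 1, 2 or 3 (adjusted p = 0.0563 to 0.0601). Il10ra and Tnfrsf1a, receptor chains for interleukin 10 and TNF, rose with log2 changes of 0.88 ± 0.16 and 0.71 ± 0.12. Socs3, a feedback inhibitor, had a log2 change of 1.39 ± 0.35, lost without primed MSC replicate 1 (adjusted p = 0.0736). Ebi3, a chain shared by interleukins 27 and 35, rose from 27.5, 24.4 and 29.04 to 77.5, 72.4 and 50.5 FPKM (log2 change 1.26 ± 0.18, adjusted p = 0.00132).

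The cytokine genes themselves gave a different picture. Il23a, the specific chain of interleukin 23, fell from 9.8, 13.8 and 10.8 FPKM in IUA to 4.94, 4.34 and 3.03 FPKM in primed MSC (log2 change -1.29 ± 0.23, adjusted p = 0.00425). Il1a fell from 633, 737 and 481 to 319, 262 and 283 FPKM (log2 change -1.08 ± 0.20, adjusted p = 0.00499). Il6 had a log2 change of -0.97 ± 0.27 (adjusted p = 0.0291), and its call was lost with GC correction (adjusted p = 0.0989) and without IUA replicate 2 or 3 or primed MSC replicate 2 or 3 (adjusted p = 0.07 to 0.0908). Tnf, Il1b and Il10 did not pass, with adjusted p of 0.269, 0.332 and 0.208. Il1b was at 754, 856 and 519 FPKM in IUA and 1313, 651 and 798 FPKM in primed MSC, where replicate 1 was the highest of the 6 libraries. Of the interleukin 1 and inflammasome list, 4 of 17 tested members fell and none rose, against 6.97% and 12.2% of all tested genes. The number that fell was 2 with the GC correction, and 1 without IUA replicate 3 or primed MSC replicate 2 and 2 without primed MSC replicate 3. The other members that fell were Il18, Il33 and Casp4. Their calls were lost without IUA replicate 3 or primed MSC replicate 2 or 3 (adjusted p = 0.0655 to 0.0757) for Il18, with GC correction (adjusted p = 0.0801) and without IUA replicate 1 or 3 or primed MSC replicate 1 or 2 (adjusted p = 0.0623 to 0.102) for Il33 and with GC correction (adjusted p = 0.0803) and without IUA replicate 3 or primed MSC replicate 2 or 3 (adjusted p = 0.0667 to 0.0915) for Casp4. On the list of pro-inflammatory markers 2 of 21 rose and 4 fell, against 12.2% and 6.97% of all tested genes. The number that fell was 2 without IUA replicate 2 or 3 or primed MSC replicate 2 or 3. Nos2, inducible nitric oxide synthase, was low in both groups, at 0.94, 1.5 and 0.29 and 7.07, 2.5 and 4.27 FPKM, and its rise was lost without IUA replicate 3 or primed MSC replicate 1 (adjusted p = 0.0576 to 0.0582). Irf5, a transcription factor that induces inflammatory genes, rose from 53.6 ± 17.02 to 109 ± 7.84 FPKM.

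NF-kB acts through a classical branch, with Rela and Nfkb1 as its subunits, and an alternative branch, in which the kinase Map3k14 (NIK) leads to processing of the Nfkb2 product. Of the NF-kB list 6 of 22 tested members rose and 1 fell, against 12.2% and 6.97% of all tested genes. The number that rose was 3 with the GC correction, and 2 without primed MSC replicate 1. Nfkb2 stood at 30.1, 25.1 and 10.8 FPKM in IUA and 70.9, 54.1 and 60.6 FPKM in primed MSC (log2 change 1.56 ± 0.28, adjusted p = 0.00427). 1 of its 3 annotated promoter windows, chr19:46304487-46304786 on the plus strand of GRCm38.p6, is shown because it holds an NF-kB-type match, in capitals, at -11 from the gene's start, and 25 CpG. Only the NF-kB-type motif was marked in it, and matches to the STAT motifs are left in small letters.
Nfkb2: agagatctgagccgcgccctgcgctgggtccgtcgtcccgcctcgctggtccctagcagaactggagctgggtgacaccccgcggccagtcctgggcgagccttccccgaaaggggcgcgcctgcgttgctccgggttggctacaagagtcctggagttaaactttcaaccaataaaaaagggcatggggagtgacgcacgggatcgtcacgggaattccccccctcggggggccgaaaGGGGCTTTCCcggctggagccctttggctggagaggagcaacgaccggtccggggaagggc
The motif occurs in 2.28% of the promoters of genes that rose, in 1.61% of those that fell in 2.1% of tested genes and in 1.89% of all promoters. Map3k14 rose from 1.81, 1.49 and 0.93 to 3.26, 3.88 and 2.97 FPKM (log2 change 0.87 ± 0.17, adjusted p = 0.0052). Relb, the partner of the Nfkb2 product, and Rela, the main subunit of the classical branch, had log2 changes of 0.83 ± 0.21 and 1.05 ± 0.30, and their calls were lost with GC correction (adjusted p = 0.0762) and without IUA replicate 3 or primed MSC replicate 1 or 3 (adjusted p = 0.0519 to 0.0757) for Relb and with GC correction (adjusted p = 0.0706) and without primed MSC replicate 1, 2 or 3 (adjusted p = 0.057 to 0.0904) for Rela. Nfkb1 and Rel, the other subunits, did not pass (adjusted p = 0.905 and 0.308).

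Several innate receptors and their signalling proteins rose. Of the Toll-like and formyl peptide receptor list, 10 of 23 tested members rose and 1 fell (median log2 change 0.47). Of all tested genes 12.2% rose and 6.97% fell. The number of members that rose was 4 without primed MSC replicate 1, 5 without IUA replicate 3 and 6 without primed MSC replicate 2 or 3. The members that passed with every library left out in turn were Tlr4, the lipopolysaccharide receptor, Unc93b1, which carries Toll-like receptors to endosomes, and the signalling proteins Irak2 and Irak3. Tlr4 was at 13.8, 12.7 and 11.8 FPKM in IUA and 17.5, 19.8 and 20.1 FPKM in primed MSC (log2 change 0.55 ± 0.11, adjusted p = 0.00655). Irak3, which restrains the pathway, was at 25.04, 25.1 and 25.2 and 60.8, 53.3 and 47.8 FPKM (log2 change 1.07 ± 0.13, adjusted p = 0.000727). Of the list of Fc receptors, Siglecs and paired receptors, 9 of 27 rose and none fell, and between 7 and 10 rose when 1 library was left out. Siglece, an inhibitory receptor for sialic acid, was at 11.9, 13.5 and 8.92 FPKM in IUA and 62.8, 62.2 and 49.5 FPKM in primed MSC (log2 change 2.26 ± 0.18, adjusted p = 0.000111). Its control MSC values of 36.9, 57.7 and 45.8 FPKM were also above all IUA values. Fcrl5, an Fc receptor-like protein, was at 0.21, 0.28 and 0.92 FPKM in IUA and 8.53, 7.94 and 5.66 FPKM in primed MSC (log2 change 2.53 ± 0.27, adjusted p = 0.000339). Fcgr4 and Syk, an activating Fc receptor and the kinase of its chain, rose with log2 changes of 0.95 ± 0.17 and 0.88 ± 0.17. Fcrls rose from 132 ± 14.1 to 353 ± 89.5 FPKM. The lectin receptors Clec4a1 and Clec4a2 rose with log2 changes of 0.95 ± 0.14 and 0.97 ± 0.17. Their longest open reading frames are 70.2% identical, and whether reads were shared between them was not tested.

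TGF-beta ligands drive matrix production in scars and also restrain inflammation, and macrophages are one of their sources. Tgfb3 and Tgfb1 rose and Tgfb2 did not pass. Tgfb3 (mm10 chromosome 12, 86056745 to 86079041) had a log2 change of 2.28 ± 0.19 (adjusted p = 0.000116), and its Sham and control MSC values were 8.99, 5.67 and 6.07 and 11.8, 11.9 and 10.6 FPKM, so that the primed MSC libraries lay above all other 9. Tgfb1 was at 1.96, 1.95 and 0.48 FPKM in IUA and 5.69, 4.84 and 5.01 FPKM in primed MSC (log2 change 1.39 ± 0.24, adjusted p = 0.00313). Of the proteins that hold latent TGF-beta on cells, Nrros, found on myeloid cells, rose from 101 ± 15.8 to 174 ± 22.3 FPKM. The receptor genes Tgfbr1 and Tgfbr2 did not pass (adjusted p = 0.145 and 0.0558). Itgav, the integrin chain that releases the active ligand, had a log2 change of -0.72 ± 0.17, and its call was lost without primed MSC replicate 2 (adjusted p = 0.0544). In all, 6 of 32 tested members of the list rose and 2 fell, against 12.2% and 6.97% of all tested genes. With the GC correction 3 members rose, beside 1201 of all 11604 tested genes. The number that rose was 3 without IUA replicate 3.

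Growth factors of repair changed in both directions. Vegfa, the main angiogenic factor, was at 40.9, 43.1 and 30.2 FPKM in IUA and 88.6, 79.7 and 75.9 FPKM in primed MSC (log2 change 1.09 ± 0.14, adjusted p = 0.00086). Osm, a cytokine of the interleukin 6 family, rose with a log2 change of 0.86 ± 0.17. Hbegf, a ligand of the epidermal growth factor receptor, fell from 91.04, 113 and 134 to 60.8, 49.6 and 63.2 FPKM (log2 change -0.94 ± 0.20, adjusted p = 0.008), as did Igf1. Among proteinases that cut matrix, Mmp14, a membrane-bound collagenase, had a log2 change of 1.37 ± 0.35, and its call was lost without primed MSC replicate 1 or 3 (adjusted p = 0.0589 to 0.0719). Of the list of matrix metalloproteinases and inhibitors 3 of 17 rose and 3 fell, against 12.2% and 6.97% of all tested genes. The number that rose was 1 without primed MSC replicate 1 or 3 and 6 without IUA replicate 1. The number that fell was 0 without primed MSC replicate 1, and 1 without IUA replicate 3 or primed MSC replicate 2 or 3. Timp1, an inhibitor of these enzymes, had a log2 change of -1.01 ± 0.30, and its call was lost without IUA replicate 2 or 3 or primed MSC replicate 1, 2 or 3 (adjusted p = 0.0557 to 0.124). Ctsk, a collagen-cutting lysosomal protease, fell from 35.3, 16.1 and 23.2 FPKM to 5.37, 11.1 and 9.19 FPKM (log2 change -1.42 ± 0.26, adjusted p = 0.00431). Atp6v0d2, a subunit of the lysosomal proton pump, fell with it (log2 change -1.70 ± 0.24). Of the focal adhesion and histone deacetylase list 6 of 27 rose and none fell. Next to Pxn these included Tln1, which links integrins to actin, from 14.3, 14.5 and 8.67 to 35.95, 37.5 and 34.7 FPKM (log2 change 1.49 ± 0.17, adjusted p = 0.00047), and Hdac5, a class II deacetylase, from 6.73, 6.12 and 4.54 to 20.6, 22.4 and 21.4 FPKM (log2 change 1.74 ± 0.15, adjusted p = 0.000116).

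In each metabolic list given here more members rose than fell in the values as deposited, apart from the respiratory chain, and 12.2% of all tested genes rose. In glycolysis 6 of 25 tested members rose and 1 fell, and the number that rose was 10 without IUA replicate 2. Hk3, the hexokinase of myeloid cells, was at 35.9, 25.6 and 18.02 FPKM in IUA and 72.2, 67.1 and 62.4 FPKM in primed MSC (log2 change 1.36 ± 0.21, adjusted p = 0.00199). Pkm, pyruvate kinase, rose from 509 ± 167 to 884 ± 6.83 FPKM, and Hif1a, the oxygen-regulated factor, from 125 ± 9.08 to 177 ± 13.8 FPKM. Ldha, lactate dehydrogenase, did not pass (adjusted p = 0.313). In iron and antioxidant genes 7 of 21 rose and 1 fell, with 3 rising with the GC correction. It was 2 without IUA replicate 3 or primed MSC replicate 3, 3 without Sham replicate 2, control MSC replicate 1, 2 or 3 or primed MSC replicate 1 or 2 and 4 without Sham replicate 1 or 3 or IUA replicate 2. Slc11a1, an iron transporter of phagosomes, rose from 342, 257 and 216 to 557, 543 and 498 FPKM (log2 change 0.99 ± 0.16, adjusted p = 0.00217), and G6pdx, which feeds NADPH, from 27.1 ± 2.93 to 43.4 ± 2.501 FPKM. In cholesterol and fatty acid metabolism 6 of 23 rose and none fell (3 without primed MSC replicate 1 or 2), among them the regulator Srebf1 (log2 change 1.11 ± 0.16) and the cholesterol exporter Abca1 (0.49 ± 0.11). Of lysosome genes 7 of 31 rose and 2 fell, and with the GC correction 4 rose and 3 fell. Without primed MSC replicate 3, 2 rose and 2 fell. The number that rose was 3 without Sham replicate 2, IUA replicate 3 or primed MSC replicate 1 or 2. It was 4 without IUA replicate 2 or control MSC replicate 1, 2 or 3. Of the nuclear-encoded respiratory chain 2 of 32 fell and none rose (7 fell without IUA replicate 1), while 28 of the 32 had log2 changes below 0. Ndufa4 and Uqcrq, subunits of the chain, were the members that fell, and their calls were lost with GC correction (adjusted p = 0.0861) and without IUA replicate 2 or 3 or primed MSC replicate 1, 2 or 3 (adjusted p = 0.0586 to 0.117) for Ndufa4 and without IUA replicate 2 or 3, control MSC replicate 1, 2 or 3 or primed MSC replicate 1, 2 or 3 (adjusted p = 0.057 to 0.147) for Uqcrq. None of 34 cytosolic ribosomal protein genes and none of 24 cell cycle genes passed with limma on the values as deposited. By limma, 4 of the ribosomal protein genes and 4 of the cell cycle genes had an unadjusted p under 0.05, and 3 ribosomal protein genes passed with the GC correction.

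Genes of both interferon lists rose in shares near that of all tested genes, 12.2%. Of the interferon gamma list 3 of 19 rose and none fell. They included Nos2 and Irf8, a transcription factor of monocytes, and Irf8 went from 48.2, 37.7 and 35.2 to 78.5, 69.3 and 61.8 FPKM (log2 change 0.78 ± 0.14, adjusted p = 0.004). Cxcl9, a chemokine that interferon gamma induces, was at 9.71, 8.8 and 9.17 FPKM in IUA and 12.1, 13.04 and 18 FPKM in primed MSC (log2 change 0.57 ± 0.20, adjusted p = 0.0646), and it passed with the GC correction (adjusted p = 0.0274). Of the type I interferon list 3 of 25 rose, with 1 under the GC correction and 1 without IUA replicate 3 or primed MSC replicate 1 or 3. Oas3, an RNA sensor, was at 2.46, 1.08 and 1.86 and 6.11, 3.79 and 6.82 FPKM (log2 change 1.23 ± 0.25, adjusted p = 0.00713). In antigen presentation on class I molecules 5 of 20 rose and 1 fell, and the number that rose was 2 without primed MSC replicate 1 or 3 and 3 without IUA replicate 3. Tap1, a subunit of the peptide transporter, was at 24.2, 24.2 and 12.7 FPKM in IUA and 63.2, 42.1 and 40.8 FPKM in primed MSC (log2 change 1.24 ± 0.25, adjusted p = 0.00699). H2-K1, a class I heavy chain, overlapped between the groups (adjusted p = 0.822). None of 9 class II genes passed with limma as deposited, and all 9 had log2 changes below 0. An unadjusted p under 0.05 was found for 3, and 2 passed as lower with the GC correction. H2-Ab1 was at 8527, 5996 and 7774 FPKM in IUA and 6869, 5134 and 5072 FPKM in primed MSC (adjusted p = 0.132).

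**Figure D4:**
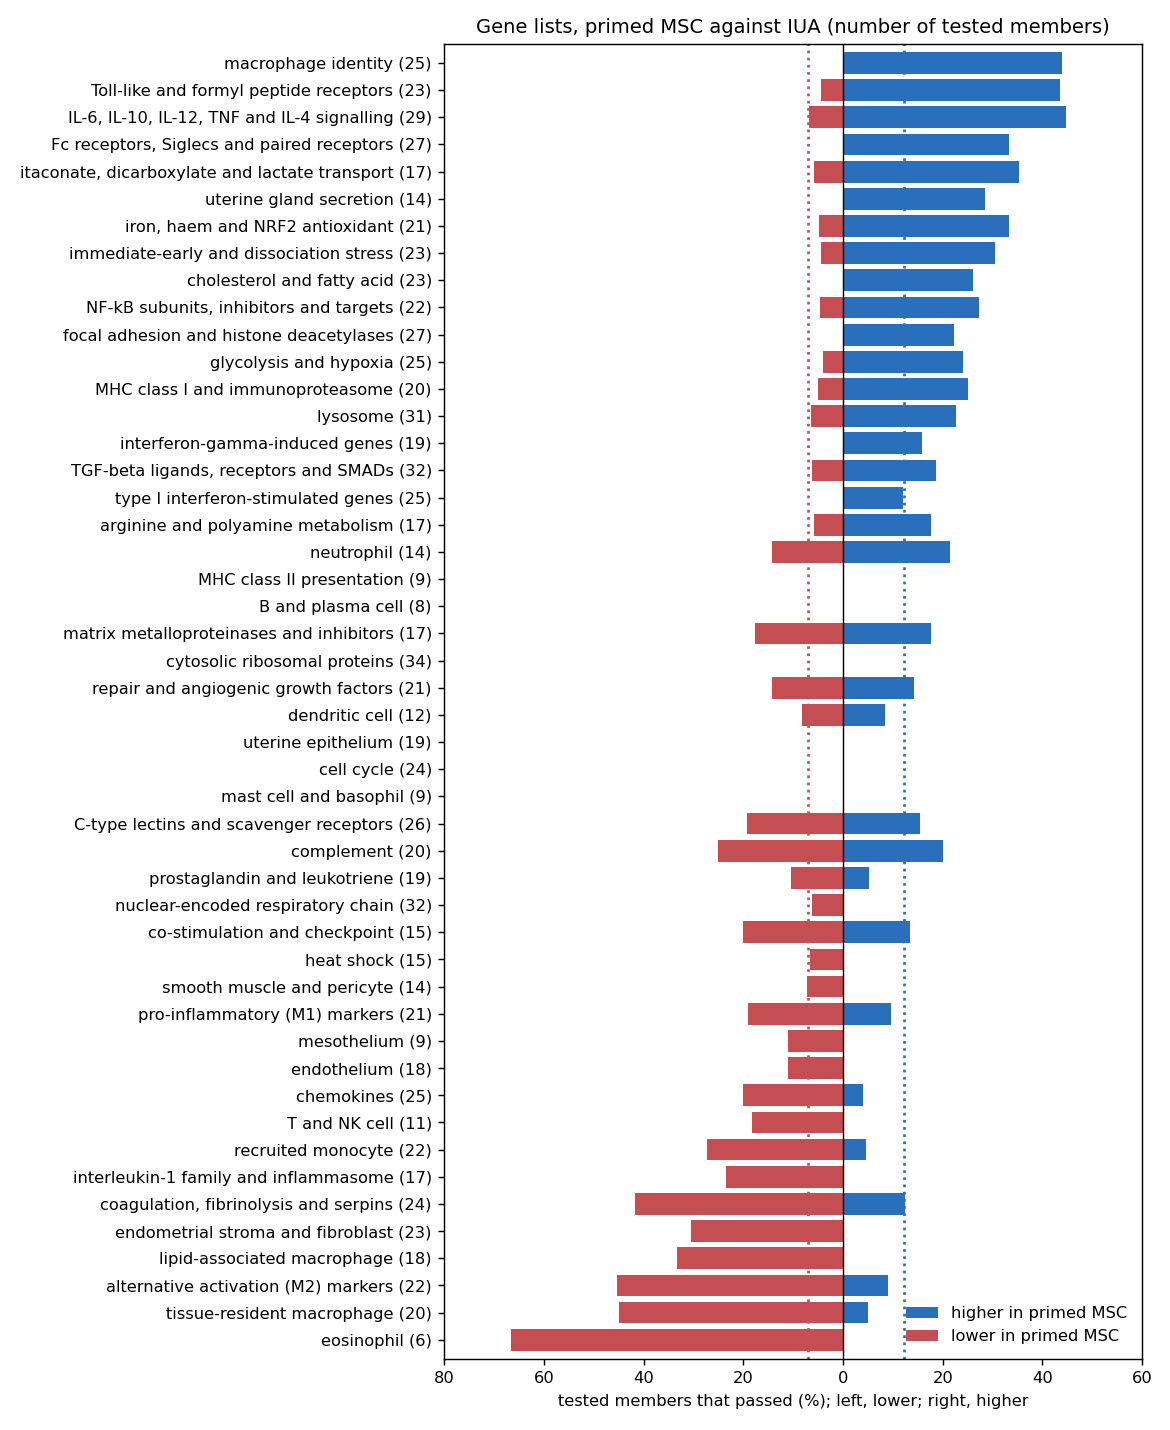
Percent of the tested members of each of 48 gene lists that were higher (blue, to the right) or lower (red, to the left) in primed MSC than in IUA, with the number of tested members after each name. Dotted lines mark 12.2% and 6.97%, the shares over all tested genes; 11 of 25 macrophage identity genes were higher and 10 of 22 alternative activation markers lower.

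Markers of other cell types moved too, and their part in the results above was not tested. Of the stroma list 7 of 23 tested members fell and none rose, with 23 of 24 tested, against 6.97% and 12.2% of all tested genes. Dcn, a proteoglycan of collagen fibres, was at 487, 154 and 198 FPKM in IUA and 47.8, 94.5 and 53.1 FPKM in primed MSC (log2 change -1.97 ± 0.40, adjusted p = 0.00685), and Efemp1, a matrix protein, at 21.3, 11.1 and 10.8 and 2.3, 4.47 and 2.57 FPKM. The mean log2(FPKM + 1) of the list was 4.44, 3.26 and 3.14 in the IUA libraries and 2.51, 3.13 and 3.07 in the primed MSC libraries, so IUA replicate 1 stood apart and IUA replicate 3 was barely above the highest primed MSC library. The number of members that fell was 2 without primed MSC replicate 1 or 3, 3 without IUA replicate 1 and 4 without primed MSC replicate 2. The summed FPKM of the list ranged from 497 to 1391 in IUA and from 222 to 396 in primed MSC. Col1a1, the chain of type I collagen, overlapped between groups (adjusted p = 0.468). With the mean of the stroma list as a covariate 1287 genes rose and 663 fell, and with that of the epithelium list 1561 and 1018. The stroma covariate kept the calls of 79.6% of the risen and 54.6% of the fallen genes. The epithelium covariate kept 98.1% and 96.9%.

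Smooth muscle genes were lower in primed MSC in most members, with 1 of 14 passing and 10 with all primed libraries below all IUA libraries, against 17.4% of all tested genes. That member, Cald1, an actin-binding protein, went from 36.9, 40.3 and 43.3 FPKM to 15.8, 20.2 and 23.8 FPKM (log2 change -0.99 ± 0.20, adjusted p = 0.007). The list summed to between 541 and 694 FPKM in IUA and between 288 and 437 FPKM in primed MSC. None of 19 tested epithelial genes passed with limma, where 1 had an unadjusted p under 0.05 and 1 was lower with the GC correction, and the summed FPKM ranged from 1679 to 5540.0 in IUA and from 1633 to 2545 in primed MSC. Of the gland secretion list 4 of 14 rose, where 12.2% of all tested genes rose and 6.97% fell. The number of members that rose was 1 without IUA replicate 2 or primed MSC replicate 1 or 3. It was 2 without Sham replicate 1, 2 or 3, IUA replicate 1 or control MSC replicate 1, 2 or 3. Prss28, a serine protease of uterine glands, was at 5.08, 3.39 and 31.6 FPKM in IUA and 48.7, 21.5 and 142 FPKM in primed MSC, and its call was lost without IUA replicate 1 or 2 or primed MSC replicate 1 or 3 (adjusted p = 0.0733 to 0.107). Ovgp1, the oviduct glycoprotein, fell from 10.1, 22.3 and 15.2 to 4.89, 2.31 and 3.68 FPKM (log2 change -1.84 ± 0.39, adjusted p = 0.00908). Of endothelial genes 2 of 18 fell, Egfl7 and Emcn, and the calls were lost without IUA replicate 2 or primed MSC replicate 1, 2 or 3 (adjusted p = 0.058 to 0.0629) for Egfl7 and with GC correction (adjusted p = 0.113) and without Sham replicate 2, IUA replicate 1, 2 or 3, control MSC replicate 3 or primed MSC replicate 1, 2 or 3 (adjusted p = 0.0566 to 0.158) for Emcn. Pecam1, which defines endothelium and is also made by leukocytes, did not pass (adjusted p = 0.564).

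Of all tested genes 12.2% rose and 6.97% fell. Among blood cells, 2 of 11 tested T and NK cell genes fell and none rose, with 22 listed. These were Cd28, at 4.81, 4.38 and 7.68 FPKM in IUA and 1.75, 2.51 and 2.7 FPKM in primed MSC (log2 change -0.98 ± 0.20, adjusted p = 0.00709), and Cd2, whose call was lost without IUA replicate 1 or 2 or primed MSC replicate 1 or 2 (adjusted p = 0.064 to 0.0998). The defining genes Cd3d, Cd3e and Cd3g did not exceed 0.24, 0.42 and 0.91 FPKM in any library. No tested gene of the B cell or mast cell lists passed with limma, where 5 of 8 and 1 of 9 had an unadjusted p under 0.05 in either direction. Of the B cell list 2 were lower with the GC correction, 1 was higher without IUA replicate 1, and 3 were lower and 1 higher without IUA replicate 3. Of the neutrophil list 3 of 14 rose, Mmp9, Csf3r and Lcn2, and 2 fell, Ngp and Camp. The call of Lcn2 was lost with GC correction (adjusted p = 0.064) and without Sham replicate 1, 2 or 3, IUA replicate 2 or 3, control MSC replicate 1, 2 or 3 or primed MSC replicate 1 or 3 (adjusted p = 0.0503 to 0.165), and that of Ngp without IUA replicate 1 or 3 or primed MSC replicate 1 or 2 (adjusted p = 0.0892 to 0.126). Camp, an antimicrobial granule protein, was at 5.39, 2.23 and 2.37 and 0.53, 0.06 and 1.41 FPKM (log2 change -1.38 ± 0.30, adjusted p = 0.00928). Ly6g, the defining surface marker of mouse neutrophils, did not exceed 0.69 FPKM. Of genes that respond to tissue dissociation 7 of 23 rose and 1 fell, against 12.2% and 6.97% of all tested genes. The number that rose was 4 without primed MSC replicate 1 or 3. Fos, a subunit of AP-1, was at 265, 248 and 274 FPKM in IUA and 425, 454 and 444 FPKM in primed MSC (log2 change 0.75 ± 0.10, adjusted p = 0.000857), and Klf2, a transcription factor, rose from 12.97 ± 6.01 to 35.3 ± 3.16 FPKM. The summed FPKM of that list ranged from 3618 to 4037 in IUA and from 4275 to 4848 in primed MSC. Of heat shock genes 1 of 15 fell, a share near the 6.97% of all tested genes. The gene was Hspb1, which went from 219 ± 25.6 to 132 ± 16.5 FPKM.

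The direct comparison of primed with control MSC asks which genes differ with the priming of the cells. It shares the primed MSC libraries with the comparison above. The correlation with GC content was 0.091, 0.011 and -0.094 in control MSC replicates 1 to 3, below the primed MSC values given above. Of the genes named here as higher, Pxn, Map3k11, Jak3, Hdac5 and Dctn1 had a GC content of 58.7% to 60.8%. Tgfb3, Epb41 and Snx18 had 53.0%, 49.7% and 49.0%, and the median of all tested genes was 49.8%. Only 13 of 11604 genes passed (0.112%), 9 higher (0.0776%) and 4 lower (0.0345%) in primed MSC, with 1496 at an unadjusted p under 0.05. Pxn stood at 14.4, 15.1 and 13.5 FPKM in control MSC and 39.9, 39.9 and 38.2 FPKM in primed MSC (limma log2 difference 1.40 ± 0.20, adjusted p = 0.0342). The other genes that were higher included Map3k11, a kinase upstream of JNK, Tgfb3, Jak3, Hdac5, Dctn1, a subunit of dynactin, Epb41, a protein of the membrane skeleton, and Snx18, a sorting nexin. The values of Tgfb3 in control MSC, 11.8, 11.9 and 10.6 FPKM, all lay above IUA. The genes that were lower were Serpina1e, a serpin, Pinlyp, Cwh43 and S100a10, the partner of annexin A2. S100a10 was at 210.0, 195 and 188 FPKM in control MSC and 123, 121 and 126 FPKM in primed MSC (limma log2 difference -0.68 ± 0.10, adjusted p = 0.0309). The groups did not overlap, which was a condition for choosing it. Pinlyp and Cwh43 did not pass against IUA (adjusted p = 0.0835 and 0.277, limma). All 13 adjusted p lay between 0.0281 and 0.04996. The number of genes that passed was 0 without primed MSC replicate 1 or 2 or control MSC replicate 1 or 3, 1 without primed MSC replicate 3, 2 without control MSC replicate 2, 3 without Sham replicate 2, 6 without Sham replicate 3 and 233 without IUA replicate 3. With array weights it was 388, and with the GC correction 17.

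**Figure D5:**
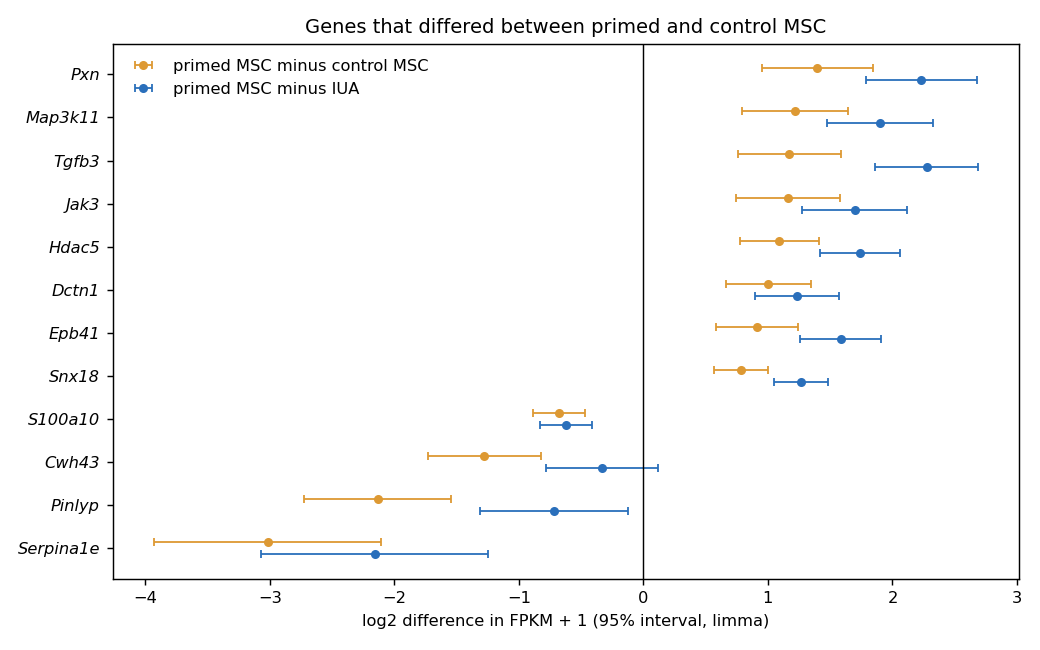
Log2 difference of 12 of the 13 genes that differed between primed and control MSC, with the 95% interval from limma, for primed minus control MSC (orange) and primed MSC minus IUA (blue). Only Cwh43 has an interval against IUA that reaches 0; for S100a10 the differences from control MSC and from IUA lie close together.

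Several genes with large changes against IUA did not pass against control MSC. For Slc13a3 the difference was 0.74 on the log2 scale (95% interval 0.08 to 1.39, adjusted p = 0.341, limma). Retnla differed by -2.20 (-3.67 to -0.74, adjusted p = 0.228), with 128, 499 and 79.2 FPKM in control MSC. For Adgre1 it was 0.31 (0.01 to 0.62, adjusted p = 0.38). Chil4, Ltc4s and Serpina3g came close, each with an adjusted p of 0.0541. Intervals of this width do not show that primed and control cells acted alike.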

How the data were processed

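RNA sequencing of F4/80-positive endometrial cells gave 12 libraries, 3 in each of 4 groups. Per the submitters' processing notes, the tools were DESeq2, HISAT2, RSEM, StringTie and fastp, given without versions or roles, on the build mm10. The authors deposited 1 FPKM value per gene and library, rounded to 2 decimals, and the aligner's settings and the depth are not given in the sources used here, so no count test was run. For 27 genes whose symbol was blank or had the form of a date it was looked up by gene ID, 48 genes share a symbol, and 4237 were at 0 in every library.

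The test was limma 3.58.1 in R 4.3.3 on log2(FPKM + 1) (variance trend, 1 mean per group, all 12 libraries, Benjamini-Hochberg adjustment, two-sided). Fold changes on this scale understate those of low genes. With 3 libraries a side, the smallest p of an exact permutation test would be 0.1. The script was tested on simulated data. GC content is that of GENCODE transcripts on GRCm38, found for 11601 tested genes; the GC correction subtracts a lowess curve (span 0.3) from each library. Promoters are from RefSeq (GRCm38.p6; 27025 genes, 9188 of them tested). Log2 changes are given with SE and FPKM means with SD.

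Named genes are, for primed MSC against IUA, up to 12 per direction with the largest change among those that passed without overlap, up to 10 per direction with a group mean of at least 100 FPKM, up to 4 members per list with the smallest p, and Adgre1, Csf1r, Cd68 and Ptprc, and, for primed against control MSC, up to 5 per direction. Other members of a list were named after their values were seen. A few genes are not reported here. The comparison, the members of the lists and the tests were chosen with earlier results of these data known. Alternatives covered pseudocount, filters, scaling, the groups fitted, a replicate block, variance and array weights, thresholds, GC correction, cell-type covariates and leaving out each library.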

Additional observations from a re-analysis of the deposited data

How the results depend on the processing

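Of 154 named genes that passed, 77 kept their call in every one of the 30 settings in which they were tested. The requirement of a log2 change of at least 1 alone removed 58 calls. No named gene that passed changed direction in a setting in which it was tested. With a filter at FPKM 5, 143 of them were tested, and with median-ratio scaling 153. A fit of 2 groups, a replicate block, robust variances, other thresholds or leaving out Sham or control MSC libraries cannot alter a log2 change. Most named genes were also chosen for a large change or a small p, so the lack of reversals says little about stability. The number of genes higher in primed MSC than in IUA, 1410, became 827 with only the 2 groups compared, 350 at a log2 change of at least 1 and 739 with GC correction leaving out IUA replicate 3. The number lower, 809, became 516, 144 and 418 under these settings, and 1432 at an adjusted p under 0.1. Leaving out 1 library gave 862 to 1507 higher and 294 to 1050 lower. The number changed between primed and control MSC, 13, became 4 and 5 with pseudocounts of 0.1 and 0.5, 0 with no filter, 5 with a filter at FPKM 5, 6 with TPM, 25 with median-ratio scaling, 207 with only 2 groups, 20 with robust variances, 388 with array weights, 46 at an adjusted p under 0.1, 20 and 8 with the epithelium and stroma covariates, 139 with GC correction leaving out IUA replicate 3, and 0 to 233 with 1 library left out. The fits without filter test 18057 genes; the other causes were not tested.

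With a replicate block 1261 genes were higher and 668 lower than in IUA, and 0 differed from control MSC; with GC correction and block the numbers were 993, 675 and 2. Same-numbered libraries did not deviate together (correlations of primed MSC with IUA -0.072, -0.172 and 0.048, and with control MSC 0.093, 0.194 and -0.076), so the numbers do not show pairs, and not every library correlated best with its own number. By TPM scaling 1588 genes were higher and 646 lower. The depth is unknown, so no limit from counts can be given.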

Other observations

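Complement genes changed in both directions between primed MSC and IUA: 4 of 20 tested members rose and 5 fell, with 12.2% and 6.97% over all tested genes. C4b, a component of the classical path, was at 11.6, 10.3 and 5.43 FPKM in IUA and 23.2, 22.04 and 22.3 FPKM in primed MSC (log2 change 1.28 ± 0.23, adjusted p = 0.00427, limma). Cd55, a membrane inhibitor, fell from 24.9 ± 6.06 to 11.7 ± 2.601 FPKM. The number that rose was 2 without primed MSC replicate 1 or 2. The number that fell was 2 without primed MSC replicate 1 or 3 and 3 without primed MSC replicate 2.

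Of the coagulation, fibrinolysis and serpin list 10 of 24 tested members fell and 3 rose (median log2 change -0.52). Of all tested genes 6.97% fell and 12.2% rose. The number that fell was 3 without primed MSC replicate 1, 4 without primed MSC replicate 3 and 5 without IUA replicate 3 or primed MSC replicate 2. The number that rose was 1 without IUA replicate 2 or primed MSC replicate 1 or 2. Serping1, the C1 inhibitor, was at 84.9, 39.4 and 43.8 FPKM in IUA and 20.5, 20.2 and 20 FPKM in primed MSC (limma log2 change -1.34 ± 0.28, adjusted p = 0.00771). Serpina1e, an antitrypsin, was at 29.2, 7.21 and 20.9 and 2.36, 3.25 and 3.29 FPKM (log2 change -2.16 ± 0.42, adjusted p = 0.00584), and Sham and control MSC held 45.6, 87.5 and 41.8 and 38.2, 21.2 and 36.4 FPKM. Serpina3g, an intracellular protease inhibitor, rose from 27.2, 25.3 and 18.3 to 52.3, 63.2 and 44.5 FPKM (log2 change 1.15 ± 0.20, adjusted p = 0.00403).

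Of the chemokine genes 5 of 25 tested members fell, against 6.97% of all tested genes. They were Ccl24, Ccl11, Ccl8, Cxcl12 and Ccl6, and 1 rose, Cx3cl1. The number that fell was 2 without primed MSC replicate 3 and 3 without IUA replicate 1 or primed MSC replicate 1 or 2. Ccl6 was at 1189, 1273 and 1071 FPKM in IUA and 553, 601 and 534 FPKM in primed MSC (limma log2 change -1.06 ± 0.15, adjusted p = 0.00132), and the groups did not overlap. The call of Cx3cl1 was lost without IUA replicate 3 or primed MSC replicate 1 or 3 (adjusted p = 0.0677 to 0.0783), that of Ccl11 without IUA replicate 1 or primed MSC replicate 2 or 3 (adjusted p = 0.0536 to 0.075), and that of Cxcl12 without primed MSC replicate 1 or 3 (adjusted p = 0.0628 to 0.0892). The co-stimulation genes Cd83, Cd40 and Tnfsf9 fell in the values as deposited, but their calls were lost without IUA replicate 3 or primed MSC replicate 1 or 3 (adjusted p = 0.0513 to 0.0569) for Cd83, without Sham replicate 2, IUA replicate 1, 2 or 3, control MSC replicate 2 or 3 or primed MSC replicate 1, 2 or 3 (adjusted p = 0.0505 to 0.118) for Cd40 and without Sham replicate 2 or 3, IUA replicate 2 or 3, control MSC replicate 3 or primed MSC replicate 1, 2 or 3 (adjusted p = 0.0536 to 0.139) for Tnfsf9.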
